A study of Mus musculus with 18 samples.

Results

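The 36 genes described here belong to the amino-acid arm of the integrated stress response: the transcription factor gene Atf4 with the factors that work with it or feed back on it, the biosynthetic enzymes and growth brakes it controls, and 13 cytosolic aminoacyl-tRNA synthetases. They were taken from a list of known members, and all 36 were found among the 46983 gene names of each of 2 count tables. The mice were male C57BL/6J, an inbred laboratory strain; their genotype field reads Glutamine in the glutamine arm and Ctrl in the other. The label HFD is carried by every sample, and no group without HFD was analysed here. The study set HFD with glutamine (HFD + Gln) against HFD alone, and its title concerns skeletal strength and fitness in obese mice. The 4 groups were adipose with glutamine (5 libraries), adipose with HFD alone (4 libraries), bone marrow with glutamine (5 libraries) and bone marrow with HFD alone (4 libraries). The adipose titles read mAT-MSC VAT and the bone marrow titles mBMSC. The labels give no age of the mice, no glutamine dose and no duration, and do not say whether each library came from its own animal or whether the number pair in each title marks a pool. The p-values below therefore set differences between groups against the spread of these libraries, which could be technical variation. Libraries are named here by their number pair. A single bone marrow column, headed with the glutamine prefix, carries the pair 13_17, which is in no title: 13 stands in the glutamine title 13+15 and 17 in the HFD title 14+17. It was placed in the glutamine arm by its prefix and is called the unmatched library.

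When an amino acid runs short, uncharged tRNA activates the kinase GCN2, which phosphorylates the initiation factor eIF2; the kinases PERK, PKR and HRI do the same in response to other stresses. Translation then slows in general while the Atf4 message, which carries upstream open reading frames, is translated more, and ATF4 protein pairs with C/EBP family partners to switch on genes of amino acid synthesis, transport and tRNA charging. Because much of this control is exerted on translation, the Atf4 transcript count is not a measure of ATF4 protein. Glutamine stands close to the pathway: it is the nitrogen donor of asparagine synthetase and, through glutamate, a source of proline.

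ATF4 and its C/EBP partners bind a composite site, the C/EBP-ATF response element, whose core was searched here as TGATGNAA and its reverse complement TTNCATCA. The windows searched were RefSeq promoters of GRCm38.p6 that run from 250 bases before to 50 bases after a gene's start. A window was at hand for 28 of the 36 genes, and 12 of these, or 42.86%, held the core. Over all genes with a window the share was 4.511%. Among the 7 synthetases with a window 5 held it. The 30-base stretches below are those of the 3 effector genes described whatever their values (Trib3, Asns and Chac1) and of 4 of these synthetases, written 5′ to 3′ on the gene's own strand with the core in capitals. The genes shown are Trib3 (chr2:152344028-152344057, minus strand), Asns (chr6:7693214-7693243, minus strand), Chac1 (chr2:119351038-119351067, plus strand), Gars (chr6:55037960-55037989, plus strand), Iars (chr13:49682126-49682155, plus strand), Tars (chr15:11399655-11399684, minus strand) and Yars (chr4:129189895-129189924, plus strand).
Trib3: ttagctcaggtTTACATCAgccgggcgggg
Asns: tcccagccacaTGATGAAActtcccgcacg
Chac1: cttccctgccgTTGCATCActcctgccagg
Gars: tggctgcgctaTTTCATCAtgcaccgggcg
Iars: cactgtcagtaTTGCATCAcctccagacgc
Tars: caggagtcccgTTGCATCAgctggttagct
Yars: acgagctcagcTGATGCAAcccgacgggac
The core lay on the gene's own strand in Asns and Yars, and in the reverse orientation in the other stretches shown; in Trib3, Yars and Iars it lay just after the start. Atf3, Nupr1, Pycr1 and Vldlr also held a core. Atf4, Atf5, Ddit3, Cebpb, Cebpg, Ddit4, Sesn2, Eprs, Sars, Phgdh, Psat1, Psph, Shmt2, Mthfd2, Mthfd1l and Aldh18a1 did not hold these letters in the window. A match is a description of the letters and not a binding site.

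Total counts ranged between 35871168 and 59529238 in adipose and between 13970788 and 37984603 in bone marrow. An adipose library reached 100 counts at 11361 to 14469 genes, a bone marrow library at 1755 to 7323. Of the defining markers, the 5 adipose progenitor genes (Pdgfra, Dpp4, Pi16, Dcn and Cd34) summed to between 13411 and 19790 CPM (counts scaled to each library's total) in adipose libraries. The 8 osteoblast genes summed to between 52050 and 239947 CPM in bone marrow libraries, and neutrophil genes to between 2965 and 54791 CPM there. In adipose, the 8 macrophage markers had a median sum of 397.0 CPM (range 255.2 to 696.2) with glutamine and 872.7 CPM (517.7 to 1564) with HFD alone. The 6 B and plasma cell markers had 529.4 CPM (281.2 to 1382) and 1493 CPM (622.3 to 4012) in the same order of groups. Cd79a was at 0 in every library of both tissues. The arms overlapped for both sums, and none of these markers passed edgeR's test for glutamine in adipose, where 0 of 15114 genes did. The part of these markers in the values below was not tested.

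In adipose the whole set was well covered: 29 of the 36 genes reached 100 counts in all 9 libraries, and 299 of 324 gene and library pairs did so, or 92.28% against 70.61% for all genes that reached 100 counts in any adipose library. Reads were taken at the transcript end, so CPM levels can be set side by side between genes without a length correction. Atf4, the central transcription factor, was the most abundant at 600.6 ± 107 CPM (SD, n = 9), which put it at rank 214 of 46983 genes by mean level. The synthetase of glutamate and proline, Eprs, followed at 270.7 ± 47.7 CPM, then the stress regulators Atf5 at 250.4 ± 63.7, Nupr1 at 231.6 ± 46.3 and Atf3 at 215.9 ± 32.4 CPM. Other members were spread down to Asns at 7.09 ± 5.03, Chac1 at 3.64 ± 4.13, Phgdh at 1.60 ± 1.59 and Cth at 0.801 ± 1.97 CPM. The 7 genes that missed 100 counts in at least one adipose library were Cth, which reached it in 1 library, Phgdh in 3, Chac1 in 4, Asns in 6, and Trib3, Psph and Sesn2 in 8 each.

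Spread across the 9 adipose libraries differed from gene to gene. The steadiest were Ddit4, an inhibitor of mTORC1 signalling, with a coefficient of variation of 12.4%, Atf3 (15.0%), Ddit3, which encodes CHOP (15.2%), Lars (17.2%), Eprs (17.6%) and Atf4 (17.9%). The widest were Cth (246.3%), Chac1 (113.6%), Phgdh (99.4%) and Shmt2 (96.3%), followed by Asns (70.9%) and Trib3 (67.6%). Cth, Phgdh and Chac1 were also the 3 lowest of the set by mean level. Trib3, a pseudokinase that feeds back on ATF4 and CHOP, had 8.9, 2.74, 15.4, 19.7 and 15.7 CPM in glutamine adipose, listed by library as 4_6, 10_12, 13_15, 18_20 and 25_27, against 22.7, 4.85, 19.1 and 0.0661 CPM in HFD adipose, listed as 1_3, 5_11, 14_17 and 23_28, an order kept for adipose from here on. A single HFD library, 23_28, lay near 0. Chac1, which degrades glutathione, had 8.18, 7.61, 0.507, 0.0208 and 0.0212 CPM with glutamine against 0.611, 9.62, 6.16 and 0.022 CPM with HFD alone. It lay between 6.16 and 9.62 CPM in 4 libraries and under 1 CPM in the other 5, with both levels in each arm.

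In bone marrow the same genes were present, taken here as 100 counts or more, in some libraries and nearly missing in others. Only 123 of 324 gene and library pairs, or 37.96%, reached 100 counts, and the share over all genes that reached 100 counts in any bone marrow library was 33.98%. Pairs at 100 counts or more had a median of 3575 counts, while the 201 pairs below had a median of 5 and none exceeded 66 counts. The cut itself sets these medians apart, so they are a description and do not show separate levels. Of the 201 pairs, 131 were under 10 counts and 70 were at 10 or more. Eprs lay on both sides of the cut at nearly equal CPM. Its lowest HFD marrow library had 109 counts (2.87 CPM), and its lowest glutamine marrow library 46 counts (2.725 CPM). Atf4 alone reached 100 counts in all 9 libraries. Aars and Eprs did so in 8, Gars, Iars and Vars in 7, and Tars in 6. Trib3 and Chac1 reached it in none, and Cebpb, Cebpg, Phgdh, Psph, Cth, Eif4ebp1 and Cars in 1 library each.

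**Figure D1:**
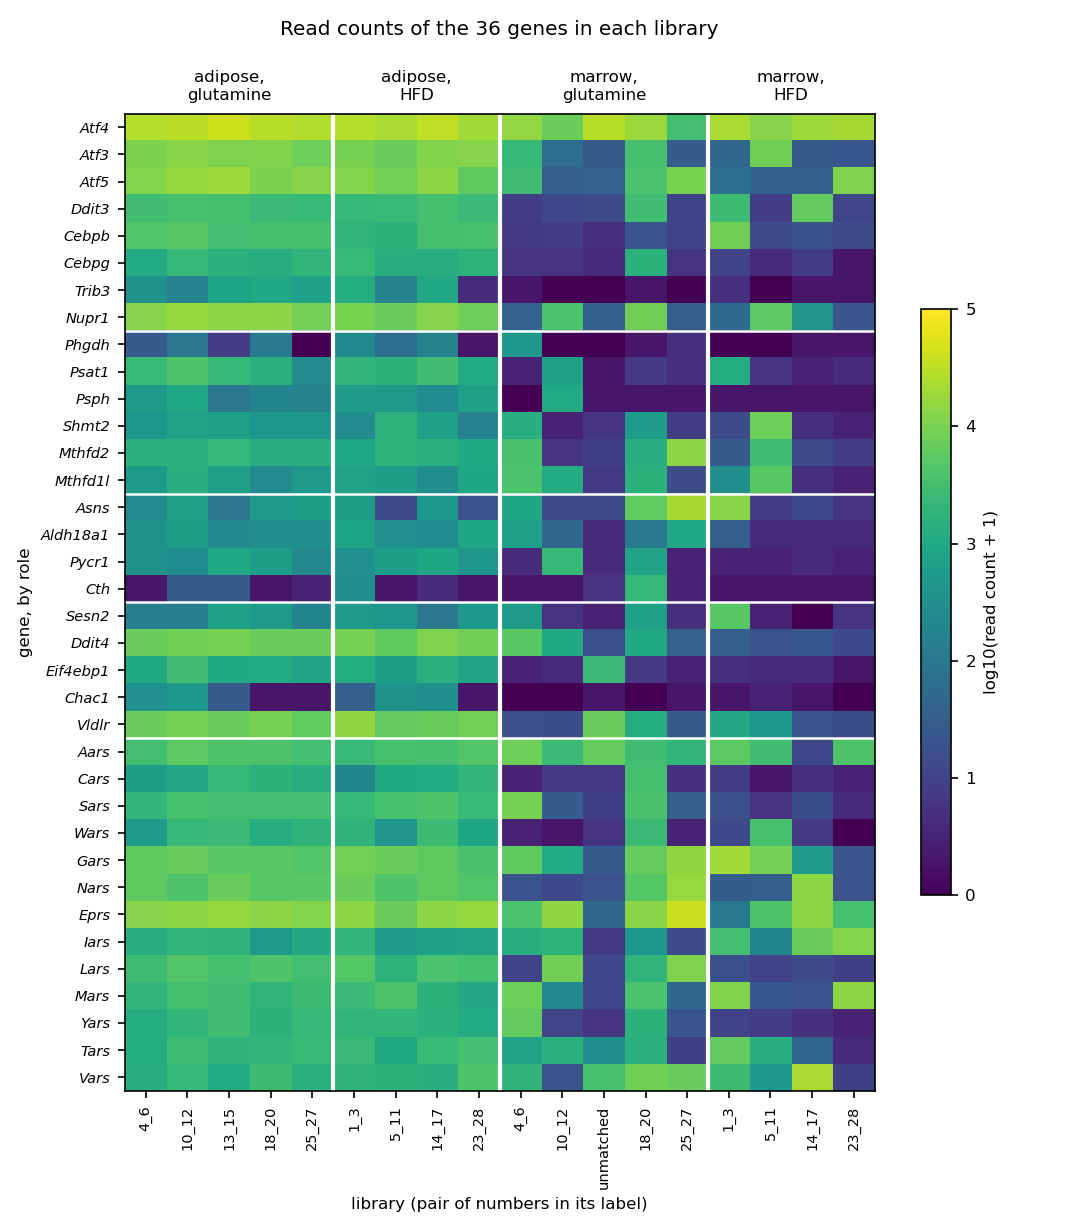
Read counts of the 36 genes (rows, grouped by role, white lines between roles) in the 18 libraries (columns, by group), coloured by log10(count + 1). In adipose 25 of 324 squares, in 7 genes, are under 100 counts. In bone marrow 201 of 324 squares are under 100 counts, and only Atf4 reaches 100 in every bone marrow column.

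The bone marrow libraries that reached the fewest and the most genes in all also reached the fewest and the most of the 36. The glutamine library 18_20 reached 29 of the 36 and 7323 genes in all. The unmatched glutamine library reached 6 of the 36 and 1831 genes in all, and HFD library 23_28 likewise 6, with 1755 in all. On average 16 ± 8.86 of the 36 were reached with glutamine (SD, n = 5) and 10.75 ± 4.43 with HFD alone (SD, n = 4) in bone marrow. The averages in adipose were 33.2 ± 1.30 with glutamine (SD, n = 5) and 33.25 ± 1.71 with HFD alone (SD, n = 4). Summed over the 36 genes, the level was 2970 ± 219 CPM in adipose and 3193 ± 734 CPM in bone marrow (SD, n = 9 each), a difference within the spread of the bone marrow libraries.

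**Figure D2:**
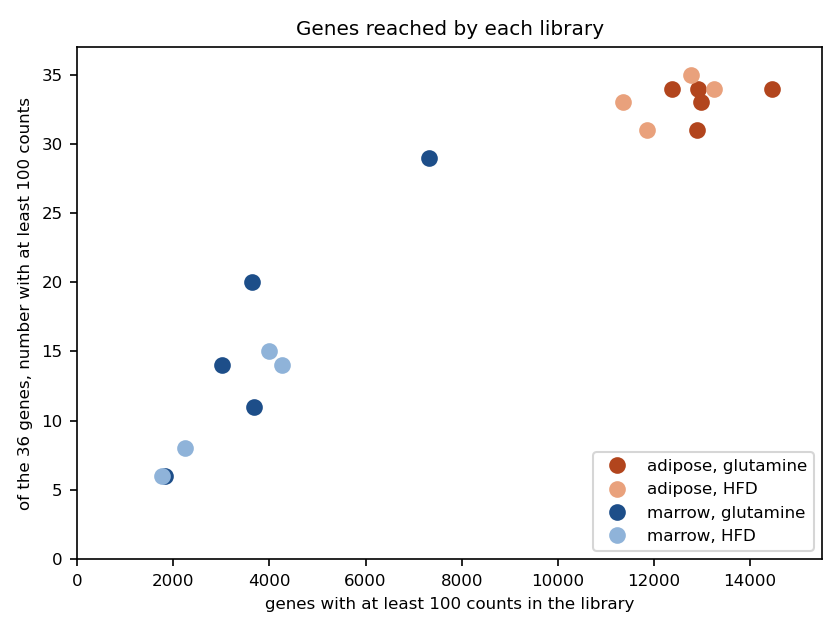
Number of the 36 genes with at least 100 counts (y axis) against the number of all genes with at least 100 counts (x axis), 1 point per library. Adipose libraries sit at 31 to 35 genes, and bone marrow libraries between 6 and 29.

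Given glutamine, adipose showed no change in this response that passed the test. Of the 36 genes 35 could be tested, Cth being below the count filter, and 0 were called by edgeR's quasi-likelihood test at a Benjamini-Hochberg adjusted p under 0.05; the background was 0 of 15114 genes called, or 0%. At an unadjusted p under 0.05 the set also had 0 genes, where 624 of all genes had one, and DESeq2 called 0 of the set and 31 genes in all. The log2 fold changes ran from -1.34 for Phgdh to 0.71 for Asns with a median of -0.02, which is also the median of all genes tested, and 16 were positive and 19 negative. For 0 of the 36 genes did the arms lie apart without overlap; over all genes at 100 counts in any library this occurred in 1.48%.

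Atf4 itself had 674, 502, 811, 598 and 568 CPM in glutamine adipose, against 517, 642, 639.8 and 454 CPM in HFD adipose. Libraries 4_6 and 13_15 lay above every HFD library, the other 3 glutamine libraries lay within the HFD range, and the log2 fold change was 0.15 ± 0.19 (SE). Ddit3 (CHOP) had 71, 59.9, 64.5, 53.1 and 52.7 CPM with glutamine, against 41.2, 65.1, 65.1 and 57.5 CPM with HFD alone. Its log2 fold change was 0.06 ± 0.24, with overlapping arms. Asns, asparagine synthetase, which uses glutamine as its nitrogen donor, had 6.15, 10.9, 1.81, 11.3 and 12.6 CPM with glutamine, against 11.3, 0.362, 8.85 and 0.44 CPM with HFD alone. The highest library of each arm was alike, and low libraries occurred in both arms; the log2 fold change was 0.71 ± 1.08. For Trib3 it was 0.09 ± 1.01 and for Chac1 -0.35 ± 1.75, from the values given above.

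The 6 smallest p-values of the set in adipose belonged to 3 regulators that were higher and 3 genes that were lower with glutamine, none of them past the threshold. Nupr1, a small stress-induced nuclear protein, had 289.7, 268, 263, 280.1 and 191 CPM with glutamine, against 179, 198, 242 and 173 CPM with HFD alone. Library 25_27 was the only glutamine library within the HFD range of 173 to 242 CPM, and the log2 fold change was 0.37 ± 0.18 (unadjusted p = 0.0636, adjusted p = 0.9998). Atf5, another bZIP factor translated under eIF2 phosphorylation, had 280.5, 276, 369, 216 and 261 CPM with glutamine, against 221, 244, 256 and 129 CPM with HFD alone, a log2 fold change of 0.38 ± 0.22. Its arms overlapped, with HFD library 23_28 below all others. Cebpb, a C/EBP factor of adipocyte differentiation and inflammation, had 103, 83, 59.7, 69.1 and 71.1 CPM with glutamine, against 35, 46.1, 65.6 and 76.5 CPM with HFD alone. The arms overlapped and the log2 fold change was 0.45 ± 0.27.

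On the other side, Gars, the glycine synthetase, had 139, 115, 96.2, 104 and 98.8 CPM with glutamine, against 157, 198, 112 and 82.3 CPM with HFD alone. Its log2 fold change was -0.34 ± 0.26, and HFD library 23_28 was the lowest of all 9. Vars, the valine synthetase, had 31.3, 36.1, 22.6, 54.5 and 31.9 CPM with glutamine, against 33.2, 44.8, 25.9 and 92.4 CPM with HFD alone. HFD library 23_28 stood above the rest, the arms overlapped, and the log2 fold change was -0.51 ± 0.39. Vldlr, the very low density lipoprotein receptor, had 183, 157, 132, 198 and 129 CPM with glutamine, against 269, 172, 134 and 188 CPM with HFD alone, with a log2 fold change of -0.28 ± 0.23 and overlapping arms.

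By role, 6 of the 8 transcription factors and feedback genes were positive, and 7 of the 13 synthetases, with a median log2 fold change of 0.12 and 0.00. Positive values were fewer among the serine and one-carbon enzymes (1 of 6, median -0.36), the asparagine, proline and cysteine enzymes (1 of 3 tested, median -0.32) and the growth brakes and other targets (1 of 5, median -0.26), where 48.64% of all genes tested were positive. None of these genes passed the test. The serine and one-carbon enzymes were Phgdh, the first enzyme of serine synthesis, at -1.34 ± 1.72, Psat1 at -0.01 ± 0.52, Psph at -0.58 ± 0.78, Shmt2 at -0.76 ± 0.71, Mthfd2 at 0.10 ± 0.36 and Mthfd1l at -0.14 ± 0.58. Among the synthetases the standard error ran between 0.19 for Eprs and 0.57 for Cars.

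**Figure D3:**
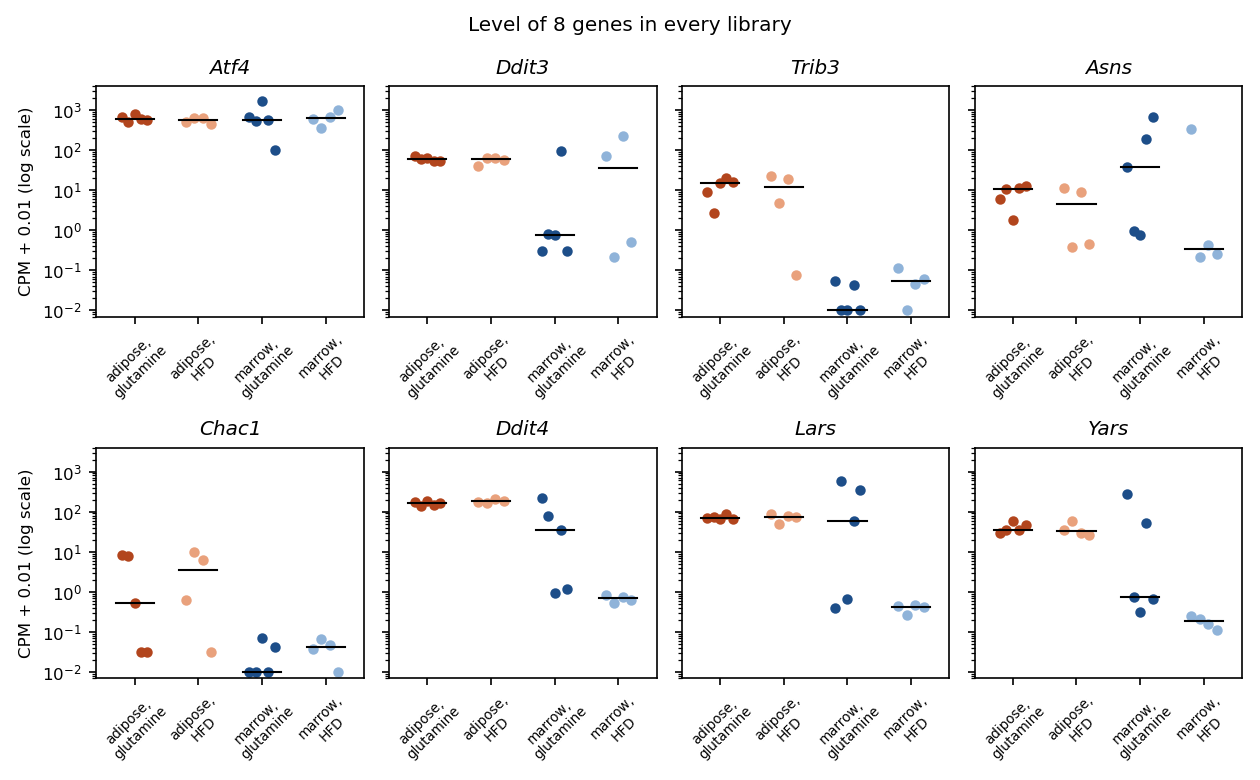
CPM + 0.01 on a log scale in every library (points) with the group median (line) for 8 genes, adipose at left and bone marrow at right of each panel, glutamine left of HFD. Adipose points of both arms overlap for every gene shown, and in bone marrow Ddit4, Lars and Yars are under 1 CPM in all 4 HFD libraries.

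In bone marrow no gene of the set passed the test for glutamine, and those with the smallest p reached 100 counts in 1 to 3 of the 9 libraries. Only 24 of the 36 could be tested, since Cebpg, Trib3, Phgdh, Psat1, Psph, Shmt2, Pycr1, Cth, Eif4ebp1, Chac1, Cars and Wars were below the filter, and 0 were called; over all genes edgeR called 8 of 6041, or 0.132%. At an unadjusted p under 0.05 there were 6 of the set and 1127 of all genes. Log2 fold changes ran from -7.07 to 8.21 with a median of 0.14, where all genes tested had -0.22. Standard errors were 0.17 to 1.75 in adipose and 1.33 to 3.28 in bone marrow. DESeq2 called 4 of the set (Aldh18a1, Ddit4 and Lars higher, Iars lower) and 722 of 3471 genes in all. The joint fit of all 18 libraries called 13 of the 36 (12 higher and Cebpb lower) and 3926 of 15203 genes in all.

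The 6 genes with the smallest p each rested on a few libraries. Ddit4 had 224, 76.7, 0.948, 34.6 and 1.17 CPM in glutamine marrow, listed as 4_6, 10_12, unmatched, 18_20 and 25_27, against 0.842, 0.518, 0.75 and 0.596 CPM in HFD marrow, listed as 1_3, 5_11, 14_17 and 23_28, an order kept for bone marrow from here on. All glutamine libraries were above all HFD libraries, 2 of them by little, and the log2 fold change was 5.78 ± 2.94 (SE) with an adjusted p of 0.264 in edgeR's quasi-likelihood test. Yars, the tyrosine synthetase, also had arms without overlap, with 275, 0.716, 0.296, 52.5 and 0.65 CPM in glutamine marrow against 0.237, 0.201, 0.143 and 0.0993 CPM in HFD marrow. It was under 1 CPM in 3 of the glutamine libraries, and had a log2 fold change of 7.82 ± 3.20 (adjusted p = 0.197). Ddit4 and Yars were the 2 of 34 genes of the set at 100 counts in any library whose arms lay apart; the share over all genes was 3.32%.

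Lars, the leucine synthetase, had 0.387, 593, 0.652, 59.5 and 353 CPM in glutamine marrow, against 0.421, 0.259, 0.464 and 0.397 CPM in HFD marrow. It was high in 3 glutamine libraries, within the HFD range in the library 4_6, and its log2 fold change was 8.21 ± 3.28. Sars, the serine synthetase, had 406, 1.93, 0.474, 119.6 and 1.07 CPM in glutamine marrow, against 0.421, 0.144, 0.536 and 0.149 CPM in HFD marrow. Libraries 4_6 and 18_20 carried the difference of 7.45 ± 3.26 on the log2 scale. Aldh18a1, which makes the proline precursor from glutamate, had 30.3, 3.15, 0.178, 3.85 and 31.6 CPM in glutamine marrow, against 0.816, 0.0863, 0.107 and 0.149 CPM in HFD marrow, a log2 fold change of 5.10 ± 2.10. The unmatched library lay within the HFD range. Cebpb went the other way, with 0.258, 0.501, 0.237, 0.577 and 0.293 CPM in glutamine marrow against 217, 0.374, 0.607 and 0.645 CPM in HFD marrow. A single HFD library, 1_3, made its log2 fold change of -7.07 ± 2.69. Fitted fold changes of this size rest on arms near 0 counts and depend on the prior count.

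Atf4 was present in every bone marrow library, with 654, 536, 1685, 564 and 99.9 CPM with glutamine against 602, 361, 670 and 1030 CPM with HFD alone. The unmatched library was the highest and 25_27 the lowest of all 9, both of the glutamine arm, and the log2 fold change was -0.37 ± 1.33. Ddit3 had 0.301, 0.787, 0.77, 92.9 and 0.293 CPM with glutamine, against 71.2, 0.201, 221 and 0.497 CPM with HFD alone. It was present in 1 glutamine and 2 HFD libraries, and its log2 fold change was -3.34 ± 2.49. Asns had 38.8, 0.93, 0.77, 195 and 677 CPM with glutamine, against 337, 0.201, 0.428 and 0.248 CPM with HFD alone. It was present in 3 glutamine libraries and 1 HFD library, at up to 677 CPM, with a log2 fold change of 1.06 ± 2.31.

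Of the genes with the smallest p in adipose, Nupr1 had 1.55, 269.6, 2.01, 268 and 0.976 CPM in glutamine marrow, against 1.47, 157, 14.7 and 0.993 CPM in HFD marrow. Atf5 had 128, 2.29, 2.19, 120.5 and 317 CPM with glutamine, against 1.74, 0.978, 1.21 and 547 CPM with HFD alone. Both were present in some libraries of each arm. Gars had 242, 81.9, 1.66, 212 and 474 CPM with glutamine, against 527, 254, 20.03 and 0.993 CPM with HFD alone, and Vldlr had 0.689, 1.07, 418, 39.3 and 0.911 CPM with glutamine, against 26.9, 13.3, 0.678 and 0.745 CPM with HFD alone. Their arms overlapped as well.

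Ddit3 (chromosome 10, 127290774 to 127296288, plus strand) overlaps the end of Mars (127296221 to 127311786, minus strand) in the GENCODE annotation of GRCm38, and the strand setting of the counting is not given in the sources used here. In HFD marrow, library 1_3 had 2703 counts of Ddit3 and 11329 of Mars, library 14_17 had 6191 and 18, and library 23_28 had 10 and 14358. The part of the overlap in these counts was not tested. Atf3, Atf5, Cebpb, Cebpg, Psat1, Psph, Shmt2, Aars, Cars, Sars, Wars, Lars and Yars also overlap another gene model on the opposite strand. Their values carry the same limit. Ddit3, Cebpg, Mthfd2, Mthfd1l, Aldh18a1, Cth, Sesn2, Aars, Cars, Wars and Iars overlap another model on the same strand, whatever the strand setting. For Ddit3 that model has the same name. Phgdh has a named pseudogene, which is a limit as well. Atf4 (chromosome 15, 80255184 to 80257541, plus strand), Trib3 (chromosome 2, 152337422 to 152344032, minus strand), Asns (chromosome 6, 7675169 to 7693254, minus strand) and Chac1 (chromosome 2, 119351229 to 119354381, plus strand) overlap no other model.

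**Figure D4:**
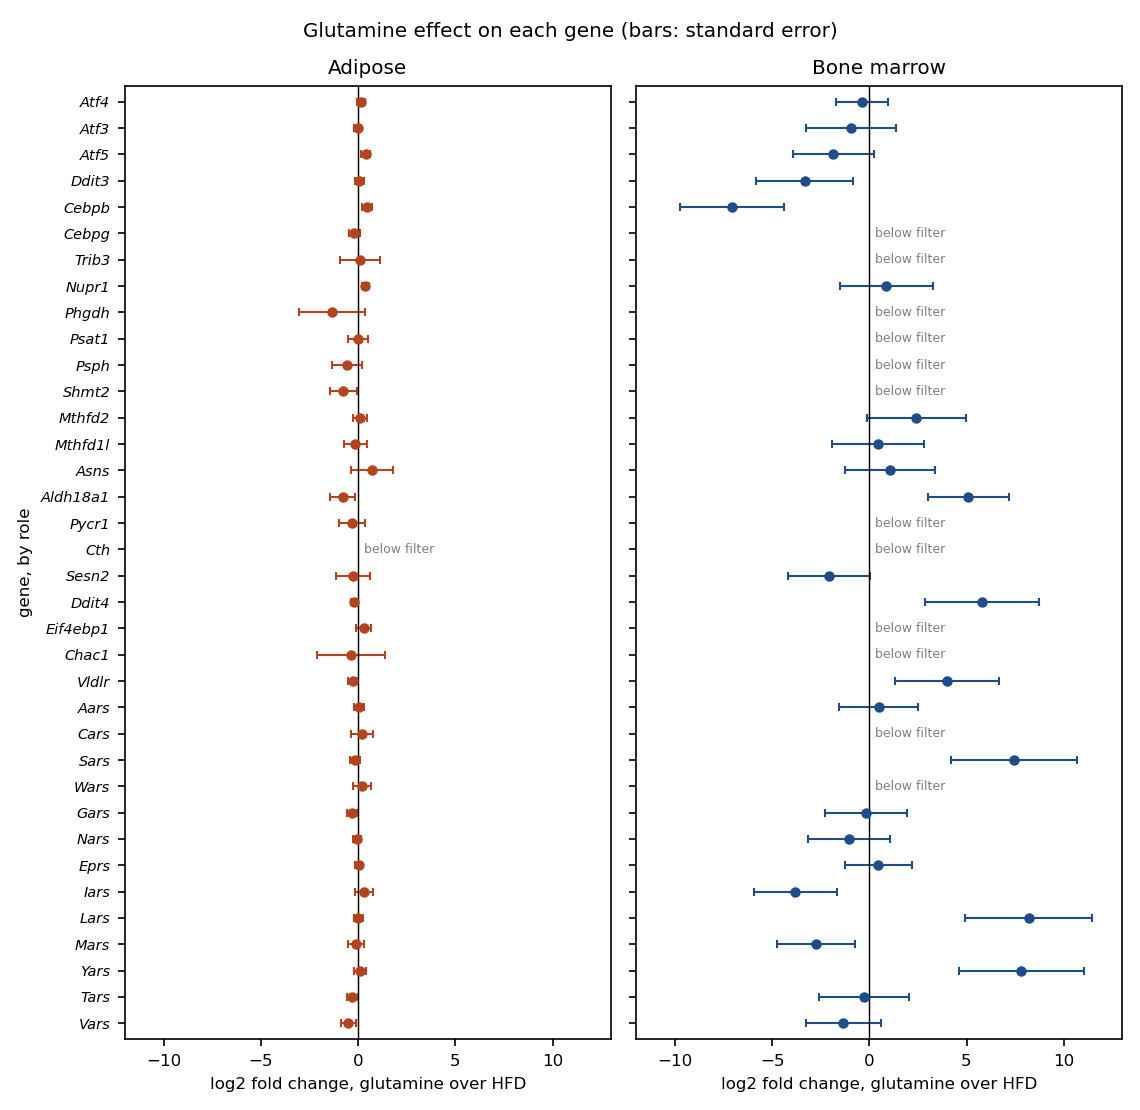
Log2 fold change of glutamine over HFD (points) with its standard error (bars) for each of the 36 genes, adipose at left and bone marrow at right on the same scale, from edgeR's quasi-likelihood fit. Adipose estimates lie between -1.34 and 0.71 and bone marrow estimates between -7.07 and 8.21, and 12 genes were below the filter in bone marrow.

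Set directly against each other in 1 fit of all 18 libraries, the effects of glutamine in the tissues differed for 10 of the 36 genes at an adjusted p between 0.0432 and 0.0480, where 1811 of 15203 genes, or 11.9%, were called. The difference, adipose minus bone marrow on the log2 scale, was positive for Cebpb at 7.61 ± 2.17 (SE). It was negative for Cth (-10.62 ± 3.06), Psph (-8.94 ± 2.79), Pycr1 (-8.61 ± 2.41), Lars (-8.58 ± 2.16), Eif4ebp1 (-8.43 ± 2.71), Yars (-8.40 ± 2.34), Sars (-8.35 ± 2.30), Ddit4 (-6.58 ± 1.91) and Aldh18a1 (-6.41 ± 1.72). Of these 10, Psph, Pycr1, Eif4ebp1 and Cth did not pass the filter of the bone marrow fit, nor Cth that of the adipose fit; their difference could be tested in the joint fit alone, and their bone marrow values rested on 1 or 2 libraries. In bone marrow Psph, the last enzyme of serine synthesis, had 0, 80.6, 0.0592, 0.0321 and 0.0325 CPM with glutamine, against 0.0263, 0.0288, 0.0357 and 0.0497 CPM with HFD alone, and library 10_12 alone held it. Pycr1, the last enzyme of proline synthesis, had 0.129, 163, 0.178, 26.5 and 0.065 CPM with glutamine, against 0.0527, 0.0575, 0.107 and 0.0993 CPM with HFD alone, present in 2 glutamine libraries. Cth, which makes cysteine, had 0.043, 0.0716, 0.296, 72.6 and 0.065 CPM with glutamine, against 0.0263, 0.0288, 0.0357 and 0.0497 CPM with HFD alone, and library 18_20 alone held it. Eif4ebp1, the translation repressor 4E-BP1, had 0.0861, 0.215, 151, 0.192 and 0.065 CPM with glutamine, against 0.105, 0.0863, 0.107 and 0.0497 CPM with HFD alone, and the unmatched library alone held it.

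In adipose the arms of each of the 10 genes overlapped, as given above for Cebpb and below for Ddit4. Psph had 12.3, 16.6, 1.87, 3.77 and 3.71 CPM in glutamine adipose, against 10.1, 14.4, 5.25 and 15.1 CPM in HFD adipose. Pycr1 had 8.52, 4.59, 19.6, 13.2 and 4.85 CPM with glutamine, against 6.26, 16.9, 17.1 and 9.71 CPM with HFD alone. The lowest Psph libraries were 13_15, 18_20 and 25_27 of the glutamine arm, and Pycr1 reached its 3 highest values in both arms. Cth had 0.0238, 0.454, 0.526, 0.0208 and 0.0424 CPM with glutamine, against 6.04, 0.0279, 0.0581 and 0.022 CPM with HFD alone, and HFD library 1_3 alone held it. Aldh18a1 had 8.49, 10.7, 4.56, 6.01 and 5.89 CPM with glutamine, against 15, 9.39, 5.17 and 19.2 CPM with HFD alone. Eif4ebp1 had 26.3, 48.2, 21.5, 23.9 and 17.4 CPM with glutamine, against 23.4, 17.6, 29.3 and 18.3 CPM with HFD alone. Its glutamine library 10_12 was the highest of the 9. Among the synthetases, Lars had 67.5, 75.6, 66.4, 87.7 and 64.4 CPM with glutamine, against 88.7, 48.3, 75.7 and 72.8 CPM with HFD alone. Sars had 49.5, 59.3, 61, 66.1 and 69 CPM with glutamine, against 41.6, 96, 78.8 and 51.3 CPM with HFD alone. For both, the HFD arm held the lowest and the highest library. Yars had 29.6, 34.1, 57.9, 34.3 and 46.8 CPM with glutamine, against 34.4, 57.6, 29.9 and 26.8 CPM with HFD alone, and the top of each arm was alike.

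The count of 10 was not stable. It was 0 with upper-quartile factors, 0 with factors of relative log expression and 0 with limma-voom. Over all 15203 genes 0, 0 and 3 were called, in that order. The count for the set was also 0 without any single adipose library or without HFD marrow library 23_28, where 0 of all genes were called. It was 1 without any other HFD marrow library, where 399 to 466 of all genes were called. Without the unmatched library, placed by its prefix alone, the count for the set was 9, and 2172 of 15197 genes in all were called. For glutamine in bone marrow 0 genes of the set and 16 of 5909 in all were then called. Glutamine marrow libraries reached 1831 to 7323 genes at 100 counts and HFD marrow libraries 1755 to 4257, and the part of this in the differences was not tested. Without the unmatched library the value of Eif4ebp1 was 0.43, and without HFD library 1_3 that of Cebpb was 1.78; that of Psph was -0.04 without library 10_12 and that of Cth -4.62 without library 18_20.

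Between the tissues themselves, Asns was lower in adipose under all 4 scalings of the libraries in edgeR's test, and most other calls moved with the scaling. Trib3 was also called under all 4, as higher in adipose, but it was below the count filter in bone marrow and entered the fit only through adipose, so that its direction was set by the filter and its values are a description. Trib3 was at 12.1 ± 8.203 CPM in adipose and 0.0295 ± 0.0351 CPM in bone marrow (SD, n = 9 each), where no library held more than 4 counts of it: 0.043, 0, 0, 0.0321 and 0 CPM in glutamine marrow and 0.105, 0, 0.0357 and 0.0497 CPM in HFD marrow. The fitted log2 difference with TMM factors was 6.82. Asns was at 7.09 ± 5.03 CPM in adipose and 139.0 ± 234 CPM in bone marrow (SD, n = 9 each), with a log2 difference of -5.94 (adjusted p = 0.00471). The bone marrow mean of Asns came from 4 libraries at 38.8 to 677 CPM, while the other 5 were under 1 CPM. Its median went the other way, at 8.85 CPM in adipose and 0.93 CPM in bone marrow. Without HFD marrow library 1_3 the log2 difference of Asns was -1.96 (adjusted p = 0.14 in edgeR's test). With the replicate block in edgeR it was -2.97 (adjusted p = 0.121). With limma-voom Asns did not pass (-1.80, adjusted p = 0.368), nor did Trib3 (5.91, adjusted p = 0.129). The ranges of adipose and bone marrow libraries overlapped for all 36 genes. In such bulk samples, fewer cells of a type and less RNA per cell cannot be told apart.

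Over the set, edgeR with TMM factors called 4 genes higher in adipose (Trib3, Chac1, Ddit4 and the C/EBP partner Cebpg) and 9 lower (Atf4, Mthfd1l, Asns and the synthetases Aars, Gars, Eprs, Iars, Mars and Vars). The background was 51.7% of 15203 genes called, 40.5% higher and 11.2% lower. Of the 4 called higher, Trib3, Chac1 and Cebpg were below the filter in bone marrow and entered through adipose, the side on which they were higher, so the count of 4 is a description. The median log2 difference of all genes tested was 3.18 with library totals alone, 1.43 after TMM scaling, -0.89 with upper-quartile factors and -1.94 with factors of relative log expression. The calls of the set moved with it: 13 were higher and 1 lower with library totals, and upper-quartile factors gave 1 higher and 18 lower. There were 1 higher and 24 lower with factors of relative log expression. Over all 15203 genes, library totals gave 8098 higher and 389 lower, and upper-quartile factors 3222 higher and 5144 lower. Factors of relative log expression gave 2465 higher and 6524 lower. Atf4 was called lower with TMM factors at -2.27, yet averaged 600.6 ± 107 CPM in adipose and 689.0 ± 449 CPM in bone marrow (SD, n = 9 each), and with library totals its log2 difference was -0.20 (adjusted p = 0.733). Relative to the median of all genes, under all 4 scalings 24 of the 36 genes lay below that median and 6 above it (Cebpb, Cebpg, Trib3, Ddit4, Chac1 and Cars). The share of all genes that kept to the same side was not counted. Cebpg, Trib3, Chac1 and Cars were below the filter in bone marrow and entered through adipose, so their side is a description. In other fits some sides changed: Ddit4 was at -0.66 with the replicate block, Chac1 at -0.45 and Psat1 at 1.44 with limma-voom. With TMM factors 10 of the 36 lay above the median of all genes.

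Relative to that median, the 5 largest differences toward bone marrow were those of Asns (-7.37), Vars (-5.54), Iars (-5.46), Mthfd1l (-4.97) and Mars (-4.96). The calls of Mthfd1l and Mars were lost without single libraries: at -1.32 without HFD marrow library 5_11 for Mthfd1l and at -2.34 without HFD marrow library 23_28 for Mars (adjusted p = 0.272 and 0.0948). Vars was at -4.11 with all libraries and -2.30 without HFD marrow library 14_17, its highest. Its adipose libraries lay between 22.6 and 92.4 CPM. In bone marrow Vars had 77.3, 1.36, 212, 268 and 238 CPM in glutamine marrow and 69.5, 13.4, 829.6 and 0.397 CPM in HFD marrow, and was under 2 CPM in 2 libraries. Iars, the isoleucine synthetase, had 30.5, 31.7, 34.2, 11.1 and 22.3 CPM in glutamine adipose and 36.5, 14.1, 14.2 and 18.3 CPM in HFD adipose, against 61.9, 124, 0.355, 13.7 and 0.455 CPM in glutamine marrow and 82.5, 5.09, 258 and 593 CPM in HFD marrow. Mars, the methionine synthetase, had 46.2, 57.5, 56.7, 38.4 and 56.7 CPM in glutamine adipose and 48.1, 112, 31.1 and 22.8 CPM in HFD adipose, against 334, 16.1, 0.652, 122 and 1.5 CPM in glutamine marrow and 298, 0.633, 0.643 and 713 CPM in HFD marrow. Mars and Iars were under 1 CPM in 2 or more bone marrow libraries. Mthfd1l, a mitochondrial folate enzyme, had 12.6, 24.4, 13.6, 5.45 and 10.6 CPM in glutamine adipose and 14, 16.9, 6.04 and 20.3 CPM in HFD adipose, against 169, 85.2, 0.355, 52.6 and 0.455 CPM in glutamine marrow and 7.74, 144, 0.143 and 0.0993 CPM in HFD marrow. Each of these genes was well above its adipose range in some bone marrow libraries and under 1 CPM in others.

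The largest toward adipose were those of Trib3 (5.39), Chac1 (3.90), Cebpg (1.77), Ddit4 (1.34) and Cars (1.07). Cebpg had 27.1, 38.1, 29.6, 26.8 and 40.5 CPM in glutamine adipose and 44.9, 37.7, 25.8 and 37.5 CPM in HFD adipose, against 0.215, 0.358, 0.178, 52.4 and 0.163 CPM in glutamine marrow and 0.237, 0.0863, 0.25 and 0.0497 CPM in HFD marrow. Cars, the cysteine synthetase, had 14.9, 17.2, 44.4, 33.8 and 30.8 CPM in glutamine adipose and 3.65, 30.1, 22.6 and 41 CPM in HFD adipose; in glutamine marrow it had 0.0861, 0.429, 0.355, 109.9 and 0.13 CPM and in HFD marrow 0.184, 0.0288, 0.143 and 0.0993 CPM. In bone marrow both were present in library 18_20 alone. Without that library the log2 difference was 5.59 for Cebpg and 5.33 for Cars, against 3.20 and 2.50 with all libraries. Cars, not called with all libraries, was then called. Both genes entered the fit through adipose, the side on which they were higher. Leaving out the only marrow library that held them could therefore only raise the difference, so the call of Cars is a description. Chac1 had 0, 0, 0.0592, 0 and 0.0325 CPM in glutamine marrow and 0.0263, 0.0575, 0.0357 and 0 CPM in HFD marrow, at most 2 counts in a library. Ddit4 had 177, 139.8, 186, 146 and 161 CPM in glutamine adipose and 178, 161, 206 and 185 CPM in HFD adipose. In glutamine marrow the libraries 4_6, 10_12 and 18_20 held it at 34.6 to 224 CPM and the rest were near 1 CPM or under.

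**Figure D5:**
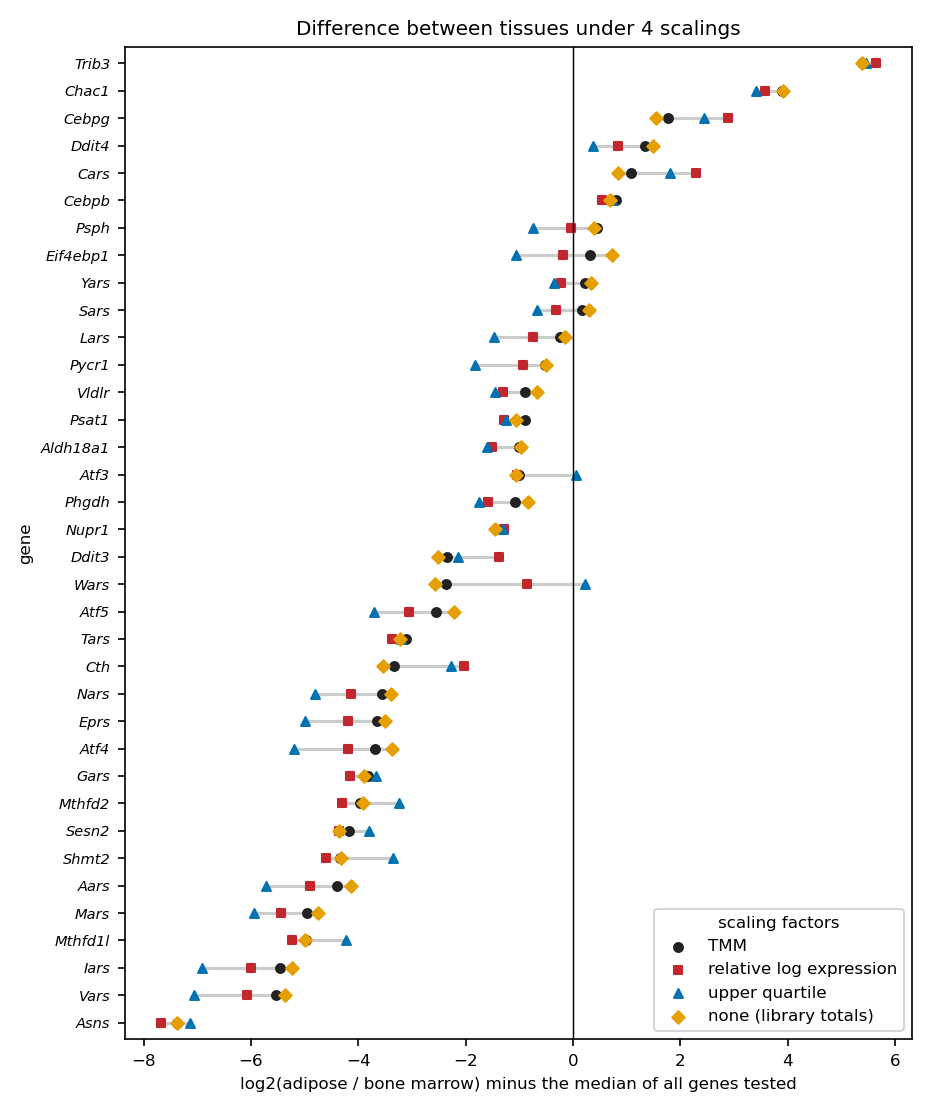
Log2 difference between adipose and bone marrow for each of the 36 genes minus the median of all genes tested, under 4 scalings of the libraries (symbols), sorted by the TMM value. Under every scaling shown 24 genes stay below 0 and 6 above it. The share of all genes that do so was not counted.

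The rest of the pathway was read out from further lists, chosen like the set itself with earlier results of these data known. In adipose glutamine changed none of them past the threshold: 0 of 10 other cytosolic synthetases and complex scaffolds, 0 of 16 mitochondrial synthetases, 0 of 16 eIF2 kinase, eIF2 and phosphatase genes, 0 of 9 amino acid transporters, 0 of 14 other ATF4 or CHOP targets and 0 of 14 other genes of serine, glycine, proline and folate metabolism. At an unadjusted p under 0.05 stood Gdf15, a secreted stress signal (0.89 ± 0.33), Aldh1l2 (3.87 ± 1.40) and the eIF2 subunit gene Eif2s1 (-0.77 ± 0.35). In bone marrow likewise 0 of the 39 genes tested in these lists were called; the smallest p-values there were those of Mthfd1 (8.74 ± 3.18), Gadd45a (7.199 ± 2.62) and Tyms (6.87 ± 2.55).

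Cytosolic and mitochondrial synthetases charge tRNA in separate compartments. Between tissues, where 40.5% of all genes were called higher in adipose and 11.2% lower, the lists read as follows with TMM factors. Of the 13 cytosolic synthetases of the set 0 were called higher in adipose and 6 lower, and their median log2 difference relative to all genes was -3.56 with TMM factors. The 10 further cytosolic synthetases and scaffolds had 0 higher, 3 lower (Dars, Aimp2 and Eef1e1) and a median of -4.11. Of 16 mitochondrial synthetases tested, 10 were called higher and 1 lower, with a median of 2.30; Rars2 (4.13), Vars2 (4.56) and Mars2 (5.16) had the smallest p. Genes that passed the filter through adipose alone are among those tested, so these counts are a description. The difference between the lists was not tested, and their calls under the other scalings were not counted.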

How the data were processed

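RNA of 18 libraries, from 30 ng of total RNA each, was sequenced at transcript 3′ ends (QuantSeq 3′ FWD), and read 1 alone was used, per the labels' protocols. The authors deposited 2 tables of whole-number counts per gene, one per tissue, not normalized. The submitters' processing notes name the build GRCm38 and the tools HTSeq 0.11.3, STAR 2.7.10b and FastQC 0.12.1. Neither the annotation nor the strand setting is given in the sources used here. Total counts were as stated in the report, and intervals were not computed from them.

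Counts were tested with edgeR 4.0.16 in R 4.3.3 (filterByExpr, TMM factors, quasi-likelihood F test, Benjamini-Hochberg adjustment over all genes tested, threshold 0.05). Each tissue was fitted on its own 9 libraries, and both the difference of effects and the tissue contrast in 1 fit of all 18. The log2 fold changes are glutamine over HFD or adipose over bone marrow. CPM values use library totals. Scripts were tested on simulated data. Alternatives were other scalings and filters, DESeq2 1.42.0, limma 3.58.1 (voom), a joint fit, a replicate block and leaving out each library; library totals and leaving out the 2 bone marrow libraries of fewest genes were added after seeing the data. Libraries with the same number in both tissues were not treated as pairs in the main fits. All 8 same-number correlations lay between -0.00859 and 0.03, under 0.1. They were taken over 15203 genes, while a bone marrow library reached 100 counts at 1755 to 7323 genes. Low correlations therefore cannot exclude that the libraries were paired.

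Members and lists were chosen with earlier results of these data known. Values per library are given for 5 fixed genes (Atf4, Ddit3, Trib3, Asns, Chac1), for every gene past the threshold in a glutamine comparison or in the difference of effects, for the 6 smallest p-values in each glutamine comparison, and for the 5 largest tissue differences in each direction relative to the median of all genes. Of each further list at most the 3 genes of smallest p are named. Gene positions are from GENCODE on GRCm38, promoters from RefSeq on GRCm38.p6. Some promoter stretches with a match are not reported here.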

Additional observations from a re-analysis of the deposited data

Results flagged for a closer look

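In groups of 4 or 5 libraries, a gene was singled out where its highest or lowest library stood further from the rest than Dixon's critical value. For values of a normal distribution, chance does this in about 1 of 20 groups. That held for 30 of 126 gene and group pairs: 2 of 35 in glutamine adipose, 1 of 36 in HFD adipose, 14 of 33 in glutamine marrow and 13 of 22 in HFD marrow. The share of all genes singled out in the same groups was not computed. In bone marrow, 31.22% of all genes that reached 100 counts in any library did so in 1 library only. The bone marrow counts are therefore a description and no result about the set.

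In glutamine adipose, Nupr1 was lowest in library 25_27 at 190.8 CPM, with the others at 262.8 to 289.7, and Eif4ebp1 was highest in library 10_12 at 48.19 CPM. In HFD adipose, Cth was highest in library 1_3 at 6.035 CPM, with the others at 0.0581 CPM or less.

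In glutamine marrow, library 18_20 stood alone for Ddit3 (92.93 CPM), Cebpg (52.41 CPM), Cth (72.64 CPM), Cars (109.9 CPM) and Wars (81.01 CPM). Library 10_12 did so for the serine and proline enzymes Psat1 (52.61 CPM), Psph (80.6 CPM) and Pycr1 (163.2 CPM). Library 4_6 was highest for Phgdh (19.84 CPM) and Yars (275.1 CPM), and library 25_27 for Asns (677.3 CPM) and Nars (546.2 CPM). The unmatched library was highest for Eif4ebp1 (150.7 CPM) and Vldlr (417.9 CPM).

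In HFD marrow, library 5_11 stood alone for Atf3 (233.9 CPM), Nupr1 (157.4 CPM), Shmt2 (223.8 CPM), Mthfd2 (80.85 CPM), Mthfd1l (144.5 CPM) and Wars (101.8 CPM). Library 1_3 did so for Cebpb (216.9 CPM), Psat1 (33.41 CPM), Asns (337 CPM) and Sesn2 (132.3 CPM). Library 14_17 was highest for Nars (496.7 CPM) and Vars (829.6 CPM), and library 23_28 for Atf5 (547 CPM). The highest library thus differed from gene to gene.

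By edgeR's test of the difference itself, the effect of glutamine was called different between tissues for the 10 genes given above. Over all genes 11.9% were called. The count of 10 was 0 with upper-quartile factors, factors of relative log expression, limma-voom and the replicate block. Over all genes these fits called 0, 0, 3 and 0 in that order. In bone marrow Cebpb, Psph, Cth and Eif4ebp1 each reached 100 counts in 1 library only. The log2 differences, adipose minus bone marrow, were 7.608 for Cebpb, -8.94 for Psph, -6.406 for Aldh18a1, -8.61 for Pycr1, -10.62 for Cth, -6.578 for Ddit4, -8.434 for Eif4ebp1, -8.349 for Sars, -8.579 for Lars and -8.401 for Yars.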

How the results depend on the processing

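For glutamine in adipose, 0 of the set were called under any alternative run. In bone marrow the count was 0 except with DESeq2 (4) and in the joint fit (13). Over all genes DESeq2 called 722 of 3471 there and the joint fit 3926 of 15203. The difference of effects, 10 genes, was 0 with limma-voom, the replicate block, upper-quartile factors and factors of relative log expression. It was 5 with DESeq2, 6 with no count filter, and 0 to 12 when single libraries were left out. Over all genes 1811 of 15203 were called for it, with DESeq2 1055 of 10527 and with no count filter 1248 of 23588. The number over all genes was 3 with limma-voom. It was 0 with the replicate block, upper-quartile factors and factors of relative log expression, and 0 to 2681 when single libraries were left out. Between tissues the counts higher and lower, 4 and 9, were 1 and 24 with factors of relative log expression, 1 and 17 with DESeq2, 1 and 18 with upper-quartile factors, 10 and 1 with limma-voom, 11 and 0 with the replicate block, 13 and 1 with library totals, 7 and 9 without the 2 poorest bone marrow libraries, and 4 to 8 and 6 to 9 when single libraries were left out. Over all 15203 genes tested, 2465 and 6524 were higher and lower with factors of relative log expression, and 3222 and 5144 with upper-quartile factors. They were 4085 and 378 with limma-voom, and 8098 and 389 with library totals. DESeq2 gave 2262 and 4160 of 10527 genes, and the replicate block 7169 and 330 of 14814. Without the 2 poorest bone marrow libraries 6641 and 1669 of 16253 genes were called higher and lower. The replicate block could not include the unmatched bone marrow library or adipose library 13_15, whose pairs each head a column in 1 tissue only.

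Log2 values that changed sign were, in adipose in the joint fit, Atf4 (-0.055), Ddit3 (-0.15) and Trib3 (-0.021), and Vars with limma-voom (0.030); for the difference of effects, Chac1 with upper-quartile factors (-0.058) and limma-voom (-2.09), and Eif4ebp1 with the replicate block (0.18) and without the 2 poorest libraries (0.49); between tissues, Ddit3 with limma-voom (2.12), the replicate block (2.72) and library totals (0.65), and Ddit4 with DESeq2 (-1.09), upper-quartile factors (-0.51) and factors of relative log expression (-1.09). Leaving out single libraries gave ranges across 0 in adipose for Ddit3 (-0.078 to 0.14), Trib3 (-0.33 to 0.65) and Chac1 (-1.05 to 0.56), and in bone marrow for Atf4 (-1.77 to 0.25) and Asns (-0.83 to 8.12). It did so for the difference of effects at Atf4 (-0.38 to 1.58), Asns (-7.81 to 1.76), Chac1 (-0.29 to 1.70) and Eif4ebp1 (-9.05 to 0.43), and between tissues at Ddit3 (-0.99 to 1.23). The causes were not tested. Direction and side of the threshold were kept by 498 values that leave out a library and by 264 under other alternatives, of 1030 in all. In bone marrow, 201 of 324 gene and library pairs were under 100 counts, which limits every estimate there.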
